A study of Mus musculus with 8 samples.

Results

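Transcripts of the elastases, chymotrypsins and carboxypeptidases of the pancreas were measured by RNA sequencing in 8 mouse pancreas libraries. The genes were taken by symbol from the deposited expression table: Cela1, Cela2a, Cela3a, Cela3b, Ctrb1, Ctrl, Ctrc, Cpa1 and Cpb1. Of these 9 symbols, 8 had a value, out of 16888 genes in the table, and Ctrc is not analysed here. All mice had received repeated cerulein, a cholecystokinin analogue used to induce acute pancreatitis, so both groups are cerulein-treated and neither is an untreated control. In 4 libraries (CKO1 to CKO4) Anxa1 was knocked out specifically in myeloid cells, and 4 (WT1 to WT4) came from Anxa1 flox/flox animals, which carry the floxed allele without that deletion. The sources used here do not give the Cre driver, the ages of the mice, the time of sampling or any pooling. The labels do not say that libraries came from separate animals, so p-values measure the spread between libraries, which may be technical.

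Acinar cells make these enzymes as inactive precursors, pack them into zymogen granules and release them into the duct when cholecystokinin receptors are stimulated. In the gut, trypsin cuts the precursors into active enzymes. Elastases and chymotrypsins are serine endopeptidases that cut inside proteins. The carboxypeptidases are zinc enzymes that then remove single residues from the C-terminal end. Activation of these precursors inside the pancreas is a known feature of pancreatitis.

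By position in mm10 (GENCODE M21 annotation), 4 of the named genes lie on chromosome 4. Cela3a (chr4:137401554-137409791) and Cela3b (chr4:137420999-137430540) are neighbours on the minus strand. Cela2a (chr4:141814962-141826160) lies on the same strand inside the annotated span of Ctrc (chr4:141814962-141846359). Cela1 is at chr15:100674421-100687921, Ctrb1 at chr8:111686519-111691010, Ctrl at chr8:105932003-105933862 and Cpb1 at chr3:20248264-20275733, all on the minus strand. Cpa1, at chr6:30639218-30645363, is the only member on the plus strand.

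Sequence likeness limits how firmly reads can be given to Cela3a, Cela3b and Cela2a. The coding sequences of Cela3a and Cela3b are 852 and 810 bases long, and 762 of 810 aligned bases (94.1%) are identical. Their first 145 coding bases are the same letter for letter and are shown because a read from this stretch matches both genes.
Cela3a and Cela3b, coding bases 1 to 145: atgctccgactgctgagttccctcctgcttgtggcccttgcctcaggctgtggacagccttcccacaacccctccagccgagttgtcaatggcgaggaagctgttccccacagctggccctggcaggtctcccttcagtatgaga
Of the 859 windows of 100 bases in annotated Cela3a transcripts, 104 (12.1%) also occur in Cela3b, and they make up 6.64% of the windows of Cela3b. Cela2a shares 211 of 1622 windows (13.0%) with Ctrc, and 305 of its 1723 exon bases overlap exons of Ctrc. Another 94 overlap Casp9 on the opposite strand. For Cela1, Ctrb1, Ctrl, Cpa1 and Cpb1 the count of shared windows was 0. RefSeq lists Ctrc as a transcribed pseudogene and GENCODE as protein coding. The sources used here do not give the read length, the use of strand or the handling of reads that match several genes, so values of Cela3a, Cela3b and Cela2a are uncertain to that extent.

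The region before the start of the gene was read for the 8 members with a RefSeq promoter entry (GRCm38.p6), as 250 bases upstream of the start. In acinar cells the PTF1 complex, a basic helix-loop-helix dimer that contains PTF1A and is joined by RBPJ or RBPJL, binds an E-box together with an RBPJ box. The promoters of the near-identical pair Cela3a and Cela3b and of Ctrb1, the most abundant member, are shown 5′ to 3′ on the strand of the gene. Capitals mark CACCTG and TGGGAA on either strand.
Cela3a, chr4:137409792-137410041, minus strand: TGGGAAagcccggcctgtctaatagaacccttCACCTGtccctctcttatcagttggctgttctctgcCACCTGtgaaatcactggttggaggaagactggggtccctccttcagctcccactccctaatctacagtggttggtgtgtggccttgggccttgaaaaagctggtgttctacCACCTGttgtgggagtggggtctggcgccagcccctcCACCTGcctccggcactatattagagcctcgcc
Cela3b, chr4:137430521-137430770, minus strand: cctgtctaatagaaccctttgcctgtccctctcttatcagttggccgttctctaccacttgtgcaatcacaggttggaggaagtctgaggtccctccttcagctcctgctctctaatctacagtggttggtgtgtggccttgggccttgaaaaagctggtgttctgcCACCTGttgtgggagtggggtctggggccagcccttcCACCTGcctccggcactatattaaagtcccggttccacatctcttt
Ctrb1, chr8:111691011-111691260, minus strand: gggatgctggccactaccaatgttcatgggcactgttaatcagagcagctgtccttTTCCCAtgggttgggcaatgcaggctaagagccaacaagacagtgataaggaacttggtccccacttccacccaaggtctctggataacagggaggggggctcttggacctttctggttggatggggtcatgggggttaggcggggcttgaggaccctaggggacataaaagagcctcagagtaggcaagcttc
The windows of Cela3a and Cela3b are identical at 217 of 237 aligned bases (91.6%), with a longest common run of 53 bases, whereas the other 27 pairs of members share runs of 7 to 9 bases. Cela3a has 4 CACCTG matches, the nearest 33 bases before the start, and 1 TGGGAA, while Cela3b has 2 CACCTG matches, the nearest 46 bases before the start, and 0 TGGGAA. The windows are offset by their annotated starts, so these nearest matches stand at the same place in the aligned bases. The TGGGAA of Cela3a is at the far edge of its window, outside the 237 aligned bases. The matching place before Cela3b lies outside its window and was not searched. Ctrb1 has 0 CACCTG and 1 TGGGAA, read on the opposite strand as TTCCCA.

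Over all members, the general E-box CANNTG was present in 8 of 8 windows, against 66.2% of 32851 promoters of the same length, both strands searched. CACCTG, a form of that E-box searched after the sequences had been seen, was present in 6 of 8 (all except Ctrb1 and Cpa1), against 17.2%. The RBPJ box TGGGAA was present in 5 of 8 (Cela3a, Cela2a, Cpa1, Ctrl and Ctrb1), against 21.6%. Both CACCTG and TGGGAA occurred somewhere in the window in 3 of 8 (Cela3a, Cela2a and Ctrl), against 3.91%. This joint count also came after the sequences had been seen and set no limit on spacing. In Cela2a, for example, TGGGAA was 85 and CACCTG 218 bases before the RefSeq start at chr4:141826005. The GENCODE span of Cela2a runs on to 141826160, so this TGGGAA lies inside that span. The NR5A2 site AAGGTCA was found in Cela1 alone (4.08% of promoters) and the GATA motif AGATAA in Cela1 and Cpb1 (9.99%). These matches describe letters in the window and not bound sites.

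The values are RPKM, read numbers divided by gene length and by library total, so levels can be set side by side between genes. Library totals recovered from the table ran from 30469002 to 34359802 reads. The 8 members together held 36.0% to 39.2% of the summed RPKM in the CKO libraries and 35.7% to 38.0% in the WT libraries (37.6 ± 1.58 and 37.0 ± 0.978, SD, n = 4 each), so more than 1 in 3 units of length-scaled signal came from 8 genes and the groups overlapped. By recovered reads the shares were 28.8% ± 1.98 and 28.2% ± 1.16. In a bulk sample, fewer acinar cells and less RNA per acinar cell cannot be told apart, and a share this large ties the RPKM of every other gene to it. The labelled tissue matched its markers: 7 members were among the 12 highest genes of the table by mean RPKM.

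By mean RPKM over the 8 libraries the order was Ctrb1, Cela2a, Cela1, Cpb1, Cela3b, Cpa1, Ctrl and, far below, Cela3a. The ranges of Ctrb1, Cela2a and Cela1 did not overlap each other or those of the next genes down. From Cpb1 to Ctrl, each gene overlapped its neighbour in the order, so neighbouring ranks among these 4 are not separated by the spread between libraries. The ends of this run were separated, as Cpb1 (20460 to 25451) lay wholly above Ctrl (12348 to 18240). Cela3a stood about 3 orders of magnitude under the rest, with Cela3b between 1367 and 2993 times higher in the same library.

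**Figure D1:**
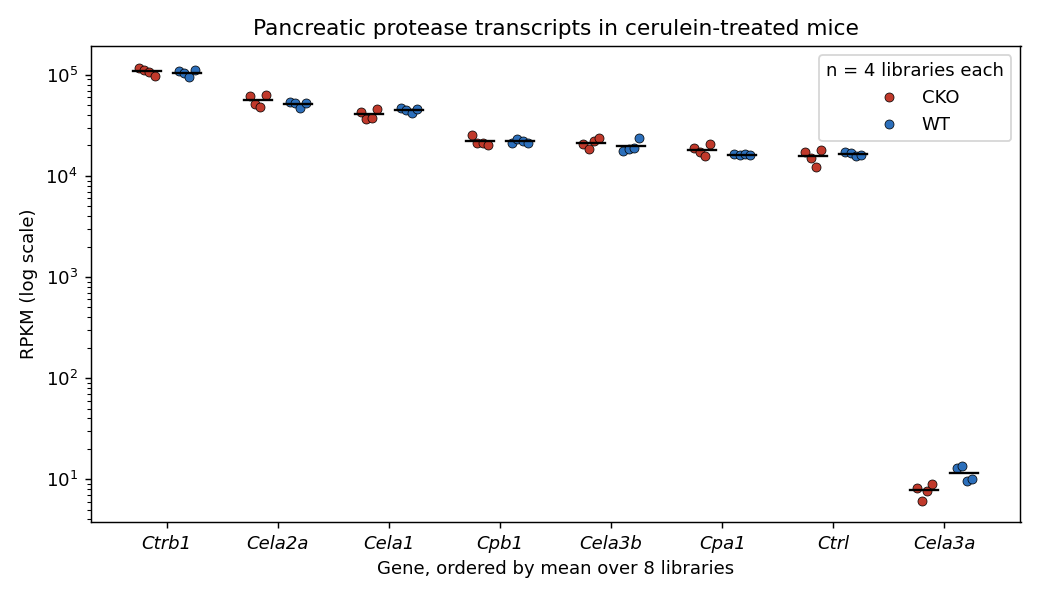
RPKM on a log axis for the 8 measured members in each of 4 CKO (red) and 4 WT (blue) libraries, with a bar at each group mean. Ctrb1 lies between 96288 and 118005, the next 6 genes lie between 12348 and 63634, and Cela3a lies between 6.14 and 13.4 with its groups apart.

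Anxa1, the targeted gene, was at 4.84, 4.76, 5.21 and 7.13 RPKM in CKO1 to CKO4 and at 8.44, 14.7, 7.05 and 9.74 in WT1 to WT4 (log2 change -0.73, SE 0.19, limma adjusted p = 0.0417, a call lost in 10 of 19 alternatives). The mean was lower in the CKO libraries but CKO4 was above WT3. The deletion is limited to myeloid cells by the labels, and Anxa1 of other cells is not targeted.

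Across the comparison of the groups, 1 of the 8 members passed the test, Cela3a, which was lower in the CKO libraries. Among all 8513 genes tested 5.74% were lower and 1.42% were higher at an adjusted p under 0.05, and 7.17% passed in either direction, so a single call among 8 genes lies close to that background. The balance of these calls moved with the scaling: 489 genes were lower and 121 higher as reported, 267 and 305 with median centring, and 194 and 228 with scaling by genes outside the digestive lists. Lower genes stayed the larger part with scaling to the same summed RPKM (394 lower and 97 higher). The same held with scaling by the digestive genes other than the members (572 and 75). The median log2 change of the members was 0.02 and that of all tested genes was -0.12. With unadjusted p, 1 member and 2323 genes were under 0.05, and limma-voom on the recovered reads called 0 members.

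Among the elastases, Cela1 (elastase 1) was at 42445, 36732, 37291 and 46390 RPKM in CKO1 to CKO4 and at 46929, 44560, 41961 and 45617 in WT1 to WT4. CKO2 and CKO3 were the lowest of all libraries, while CKO4 stood among the WT values. The log2 change was -0.14 (SE 0.09, adjusted p = 0.347), and its 95% interval ran from 0.787 to 1.04 as a fold.

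Cela2a (elastase 2A), the second most abundant transcript of the table, was at 61122, 50929, 48052 and 63634 RPKM in the CKO libraries and at 54129, 53057, 47127 and 52722 in the WT libraries. CKO1 and CKO4 exceeded every WT library, and CKO2 and CKO3 lay within the WT range. The log2 change was 0.10 (SE 0.10, adjusted p = 0.541), with a fold interval from 0.920 to 1.26.

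The proportion of Cela2a to Cela1 was also taken within each library. The ratio of Cela2a to Cela1 RPKM was 1.44, 1.39, 1.29 and 1.37 in CKO1 to CKO4 and 1.15, 1.19, 1.12 and 1.16 in WT1 to WT4 (1.37 ± 0.0627 and 1.16 ± 0.0276, SD, n = 4 each). The groups did not overlap, as for 25.6% of the 903 pairs of tested genes from the members and the digestive lists. Ratios cancel the scaling of a library, so this separation is the same under any library size. It was picked after the values had been seen, so it is given with no test.

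**Figure D2:**
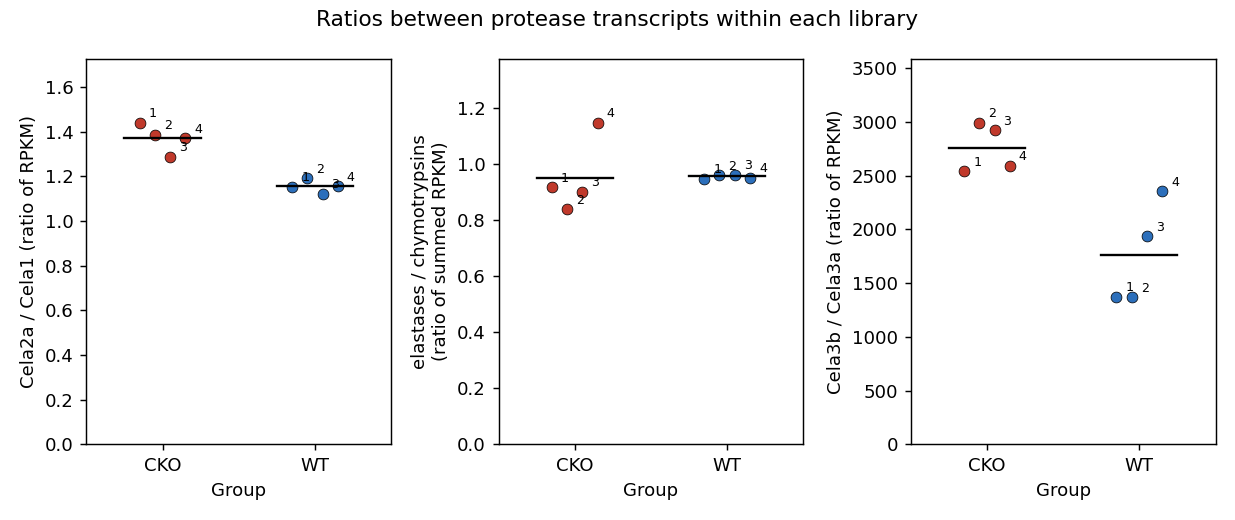
Ratios of RPKM within each library, numbered 1 to 4, for CKO (red) and WT (blue), with bars at group means: Cela2a to Cela1, summed elastases to summed chymotrypsins, and Cela3b to Cela3a. The groups are apart in the first and last panels, and in the middle panel CKO4 at 1.15 lies above all other libraries.

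Cela3b (elastase 3B) was at 20774, 18367, 22106 and 23480 RPKM in the CKO libraries and at 17809, 18356, 18804 and 23802 in the WT libraries. All CKO values lay inside the WT range, which WT4 stretched upwards, while WT1 was lowest. The log2 change was 0.11 (SE 0.11, adjusted p = 0.554), with a fold interval from 0.911 to 1.28.

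Cela3a (elastase 3A) was at 8.18, 6.14, 7.56 and 9.06 RPKM in CKO1 to CKO4 and at 12.9, 13.4, 9.70 and 10.1 in WT1 to WT4. Every CKO library was below every WT library. Groups that did not overlap, in either direction, were seen for 18.7% of all tested genes. The means were 7.73 ± 1.23 and 11.5 ± 1.91 (SD, n = 4 each), 1.49 times higher in WT, and the log2 change was -0.52 (SE 0.14, adjusted p = 0.0478, fold interval 0.561 to 0.865). Without any single library of either group the call was lost (adjusted p from 0.0511 to 0.136), and it was also lost with limma-voom (0.071). It held in 4 of 19 alternatives, and in all 19 the log2 change was below 0, at -0.60 to -0.38.

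These values rest on few reads, 202 to 274 per CKO library and 290 to 413 per WT library. By exact 95% Poisson intervals, which cover counting error only, CKO4 could lie between 8.01 and 10.2 RPKM and WT3 between 8.61 and 10.9, so the nearest libraries of the groups are not separated by counting. CKO2, at 5.32 to 7.04, and WT2, at 12.2 to 14.8, are. The RPKM of Cela3a came to 0.0334% to 0.0394% of that of Cela3b in CKO and 0.0425% to 0.0731% in WT. How many of the reads counted on Cela3a came from Cela3b was not tested.

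Of the chymotrypsins, Ctrb1 (chymotrypsinogen B), the most abundant transcript of the table, was at 118005, 111260, 106693 and 97968 RPKM in CKO1 to CKO4 and at 108155, 103679, 96288 and 111877 in WT1 to WT4. CKO1 was highest and WT3 lowest, and the rest intermixed. The log2 change was 0.05 (SE 0.09, adjusted p = 0.764), with a fold interval from 0.907 to 1.17.

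Ctrl (chymotrypsin-like protease) was at 17317, 14897, 12348 and 18240 RPKM in the CKO libraries and at 17086, 16861, 15639 and 16285 in the WT libraries. The CKO libraries took both the lowest and the highest place around a tight WT group (15700 ± 2642 and 16468 ± 647, SD, n = 4 each). The log2 change was -0.08 (SE 0.12, adjusted p = 0.673), with a fold interval from 0.792 to 1.12.

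Of the carboxypeptidases, Cpa1 (carboxypeptidase A1), which removes aromatic and aliphatic residues, was at 18977, 17378, 15650 and 20778 RPKM in CKO1 to CKO4 and at 16357, 16065, 16319 and 16081 in WT1 to WT4. CKO1, CKO2 and CKO4 were above every WT library and CKO3 was below them all. The log2 change was 0.16 (SE 0.10, adjusted p = 0.302), with a fold interval from 0.967 to 1.29.

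Cpb1 (carboxypeptidase B1), which removes lysine and arginine, was at 25451, 21194, 21224 and 20460 RPKM in the CKO libraries and at 21393, 23427, 22046 and 21320 in the WT libraries. CKO1 was highest and WT2 next, and the remaining values lay between 20460 and 22046. The means were nearly equal, 22082 ± 2273 and 22047 ± 977 (SD, n = 4 each), with an adjusted p of 0.991 and a fold interval from 0.871 to 1.15.

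**Figure D3:**
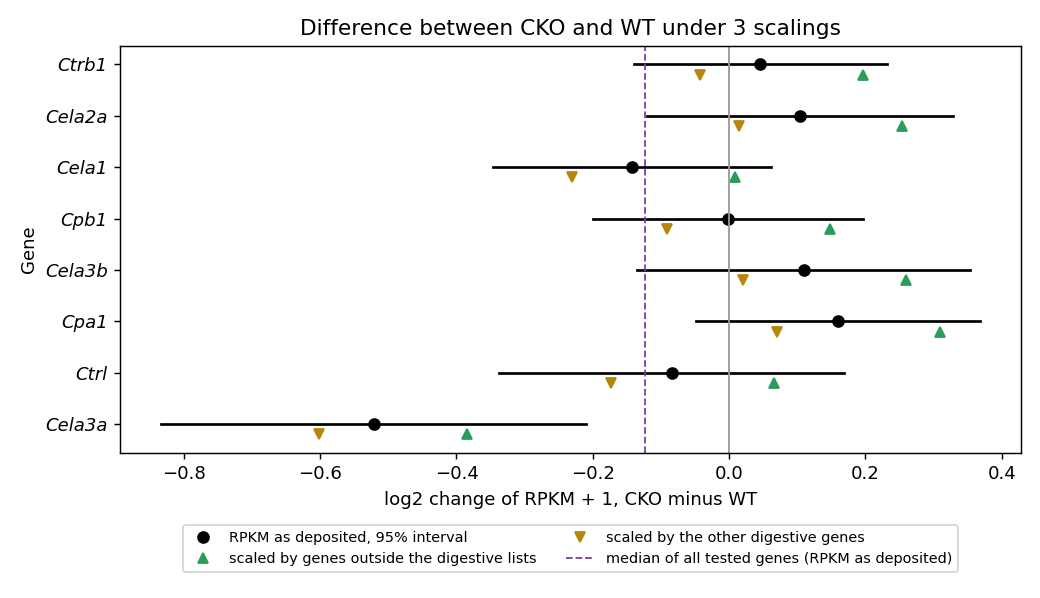
Log2 change of RPKM + 1, CKO minus WT, for each member with its 95% interval (black), and the same change after scaling libraries by genes outside the digestive lists (green triangles) or by the other digestive genes (brown triangles). The dashed line is the median of all tested genes at -0.12, and Cela3a is the only member whose interval lies off 0.

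Scaling turned the sign of Cela1, Ctrb1, Ctrl and Cpb1 and left Cela2a, Cela3b and Cpa1 above 0 and Cela3a below it. With genes outside the digestive lists as the reference, the median of all tested genes moved up by 0.12 and the log2 changes became 0.31 for Cpa1, 0.15 for Cpb1, 0.07 for Ctrl and 0.01 for Cela1. Under that scaling the 7 abundant members were all above 0. With the other digestive genes as the reference, Ctrb1 moved to -0.04 and Cpa1 to 0.07. None of the 7 abundant members passed the threshold under any of the 19 alternatives, where the lowest adjusted p was 0.0946, for Cela1.

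By class, elastases held 15.7% ± 1.55 of summed RPKM in CKO and 15.6% ± 0.487 in WT, chymotrypsins 16.5% ± 0.886 and 16.3% ± 0.617, and carboxypeptidases 5.36% ± 0.305 and 5.14% ± 0.220 (SD, n = 4 each). The groups overlapped in all 3 classes. The ratio of elastases to chymotrypsins was 0.919, 0.841, 0.903 and 1.15 in CKO1 to CKO4 and 0.949, 0.962, 0.964 and 0.953 in WT1 to WT4. The WT libraries lay close together while CKO4, which had the lowest Ctrb1 and the highest Cela1, Cela2a and Cela3b of the CKO libraries, stood above all others.

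Among the 28 pairs of members, 9 had ratios that did not overlap between the groups. Of these, 5 involved Cela3a, out of 7 such pairs, and 4 came from the other 21: Cela2a to Cela1, Cpa1 to Cela1, Cela2a to Ctrl and Cpa1 to Ctrl. The share of all 903 digestive pairs, given with Cela2a and Cela1, was 25.6%. Each of these 4 pairs joins Cela2a or Cpa1, with a log2 change above 0, to Cela1 or Ctrl, with one below 0. For example, Ctrl over Cpa1 was 0.912, 0.857, 0.789 and 0.878 in CKO1 to CKO4 and 1.04, 1.05, 0.958 and 1.01 in WT1 to WT4, so Cpa1 exceeded Ctrl in every CKO library and in WT3 alone among the WT libraries. These ratios were examined after the values had been seen and carry no test.

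Members were also compared by profile, as the root-mean-square difference of log2(RPKM + 1) over the 8 libraries after each gene is centred on its mean. The closest members were Cela2a and Cpa1 (0.0732), then Cela1 and Ctrl (0.0946) and Ctrb1 and Cpb1 (0.0981), and in all 3 pairs the genes belong to different enzyme classes. The farthest were the near-identical neighbours Cela3a and Cela3b (0.392).

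**Figure D4:**
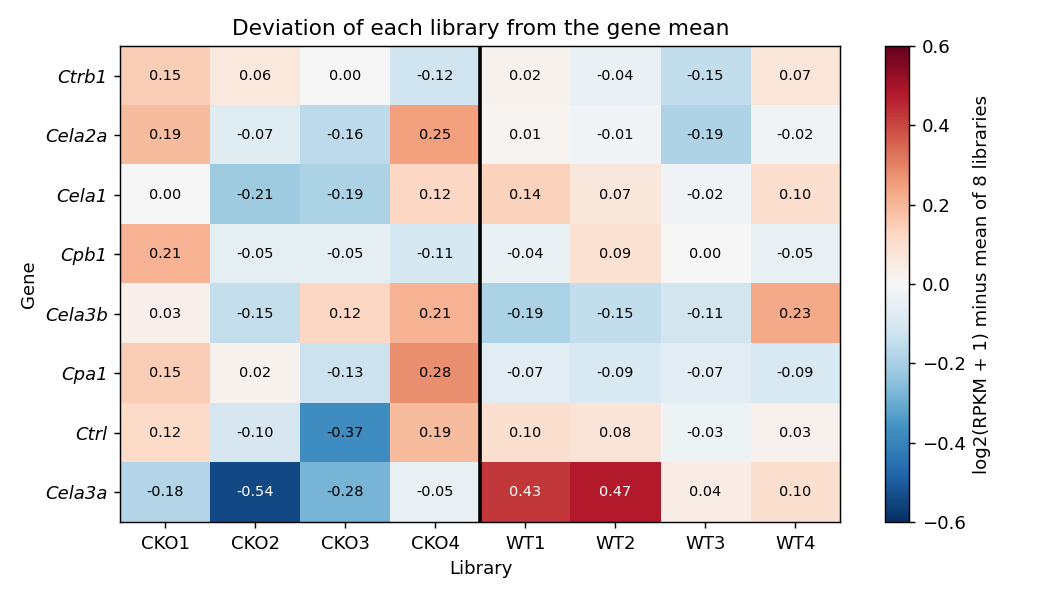
Log2(RPKM + 1) of each member in each library, minus the mean of the gene over the 8 libraries, with CKO left of the black line and WT right of it. Cela2a and Cpa1 are both highest in CKO4 and high in CKO1, Cela3a is below its mean in all CKO libraries, and Ctrl drops to -0.37 in CKO3.

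Genes with the profile nearest to each member, by the same measure among all 8513 tested genes, were in part other pancreatic enzymes. For Ctrl they included Clps (colipase, 0.0650) and Pnlip (pancreatic lipase, 0.0838). Cela1 had Ndufa9 (0.0608) and Wdr70 (0.0642), and Cela2a had Zg16 (a zymogen granule protein, 0.0634), Cpa1 and Amn1 (0.0788). Cela3a had Dpcd (0.118), Pex19 (0.130) and Spink1 (0.131), the trypsin inhibitor stored with the zymogens.

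Cpa1 had Kin (0.0515), Bnip3 (0.0696) and Cela2a. Cpb1 had Zfp397 (0.0424), Vps25 (0.0581) and Golga1 (0.0645), Ctrb1 had Rbm42, Rpl29 (both 0.0591) and Ssr2 (0.0609), and Cela3b had H2-Ke6 (0.0855), Plekhf1 and Scg5 (0.102). The members' median difference to all tested genes lay between 0.231 and 0.343. The pseudocount flattens the profiles of genes near 1 RPKM, such as Amn1, Kin and Zfp397, so small differences to them carry less weight.

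Libraries of the CKO group varied more. The coefficient of variation was larger in CKO for 6 of 8 members (75%), against 63.2% of all tested genes. The median over members was 11.6% in CKO and 5.39% in WT, against 17.1% and 14.0% over all tested genes.

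The other proteases and inhibitors of the zymogen granule share the compartment of the members. Of 14 tested, 2 were higher in CKO, Prss3 (a trypsinogen, log2 change 0.71, adjusted p = 0.0141) and Try4 (trypsin 4, 0.38, 0.0206), 1 was lower, Spink1 (-0.60, 0.00551), and 11 did not pass. Their median was 0.17. The other 8 tested trypsinogen genes missed the threshold. Their log2 changes were 0.14 for Prss2, 0.25 for Try5, 0.20 for Prss1, 0.32 for Gm5771, 0.38 for Gm10334, 0.22 for 1810009J06Rik and 0.05 for 2210010C04Rik, and -0.21 for Try10. Of 21 tested amylases, lipases and granule proteins, Pnliprp2 (a lipase-related protein, 0.30, 0.0498) was higher, Amy2a5 (-1.13, 0.00541) and Amy2b (-1.21, 8.46e-05) were lower, 18 did not pass, and the median was -0.04. In the 19 alternatives Pnliprp2 missed the threshold in 15 and Try4 in 5. Trypsinogens and amylases are families of closely similar genes, so the split of reads within them is uncertain, and GENCODE lists Amy2b as a pseudogene. The members as a whole were 0.972 ± 0.0216 times the summed RPKM of these other digestive genes in CKO and 1.01 ± 0.0420 times in WT (SD, n = 4 each).

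Of the 9 acinar transcription factors tested, 0 were higher, 1 was lower, Foxa2 (-0.62, adjusted p = 0.0242), and 8 did not pass, with a median of -0.12. Ptf1a, whose product is part of the PTF1 complex, was at 51.5, 62.1, 72.3 and 55.4 RPKM in the CKO libraries and at 48.1, 47.8, 36.1 and 60.3 in the WT libraries (0.33, 0.187). WT4 lay inside the CKO range. Bhlha15, which encodes the secretory regulator MIST1, had a log2 change of 0.60 (adjusted p = 0.114), and Gata4, a GATA factor, had one of -0.60 (adjusted p = 0.0557). Foxa2 was low, with mean RPKM of 1.88 in CKO and 3.39 in WT (n = 4 each), against a filter of 1 RPKM. Its log2 change depended on the pseudocount, at -0.847 with a pseudocount of 0.1 and -0.289 with a pseudocount of 5. Which cells its reads came from was not tested. Foxa2 missed the threshold in 5 of the 18 alternatives in which it was tested. Gata4 passed it in 2 of 19 and Bhlha15 in 1 of 19 (without CKO1, 0.818, limma adjusted p = 0.0152).

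Markers of other cell types were summed in each library. Duct markers (8 genes, 1 of 6 tested lower, Sox9) summed to 312 to 575 RPKM in CKO and 594 to 689 in WT, so the groups did not overlap. Krt19, the largest part of that sum, did overlap, with CKO3 at 368 and WT4 at 364 RPKM. Among single tested genes, 18.7% had groups that did not overlap. In the other lists the sums of the groups overlapped. Macrophage markers (8 genes, 1 of 8 lower, Tyrobp) summed to 178 to 373 and 333 to 621, neutrophil markers (7 genes, 0 of 4 called) to 13.8 to 45.1 and 36.5 to 82.3, and islet markers (7 genes, 1 of 6 higher, Gcg) to 1205 to 1897 and 792 to 1521. Fibroblast markers (7 genes, 0 of 6) summed to 63.7 to 102 and 53.5 to 122, endothelial markers (4 genes, 1 of 3 lower, Kdr) to 11.8 to 15.6 and 12.1 to 20.2, and adipocyte markers (5 genes, 0 of 1) to 22.2 to 28.9 and 22.9 to 58.7. Lymphocyte markers (6 genes, 0 tested) stayed at 0.174 to 0.484 in CKO and 0.142 to 12.7 in WT. Of the 19 alternatives, Gcg missed the threshold in 12, Tyrobp in 11 and Sox9 in 4, and Kdr in 6 of the 18 in which it was tested. In each list, 0 markers were at 0 in all libraries. Their part in the values of the members was not tested.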

How the data were processed

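Total RNA of 8 samples of pancreas from cerulein-treated mice was sequenced on an Illumina instrument, per the labels' protocols, and mm10 is named in the submitters' processing notes. The sources used here name no aligner, counter or annotation. The values were deposited by the authors as RPKM, read numbers divided by gene length and library total, in a table that states no unit. The unit was read from the numbers: at a single gene length and library total, 16056 of 16068 genes above 0 in at least 2 libraries (99.93%) gave whole reads within 0.05. A single unnamed column was not used.

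Of the genes, 8513 reached 1 RPKM in 4 or more libraries and were tested with limma 3.58.1 in R 4.3.3 on log2(RPKM + 1), with group as the only term, a variance trend and robust variances. P-values were adjusted after Benjamini and Hochberg over the 8513 genes and called under 0.05. Intervals are 95%. Limma was tested on simulated data. Recovered reads went into limma-voom as an alternative. Others changed the pseudocount, the filter, the variance trend, the scaling and the libraries used, or added a block for the replicate number. Reads per kilobase use gene lengths that need not match 1 transcript. Python 3.11.15, NumPy 2.4.6, pandas 2.3.3, SciPy 1.17.1 and Matplotlib 3.10.9 did the rest.

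The members, the gene lists and the tests were chosen with earlier results of these data known. CACCTG and the ratios between members were added after the values had been seen. Named were all members, Anxa1, the tested genes with the smallest p in each other list, the trypsinogens, and the 3 genes nearest in profile to each member. Of the latter, 1 gene is not reported here. Protein identity was not analysed here.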

Additional observations from a re-analysis of the deposited data

Results flagged for a closer look

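In a group of 4 libraries, a single library stood apart for 2 of the 16 combinations of member and group, where chance gives about 1 in 20 groups. Cela3b in WT4 was 23802 RPKM, while the other WT libraries lay between 17809 and 18804. The gap was 0.834 of the whole range. Cpb1 in CKO1 was 25451 RPKM, while the other CKO libraries lay between 20460 and 21224, and the gap was 0.847 of the range.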

How the results depend on the processing

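Of the 8 members, only Cela3a changed its side of the threshold in the 19 alternatives. The count of members lower in CKO, 1 as reported, was 0 with a pseudocount of 0.1, no filter, median centring, scaling by genes outside the digestive lists, the same summed RPKM, limma-voom or a replicate block, and 0 when each library was left out. It was 1 with a pseudocount of 5, a 5 RPKM filter, no variance trend or scaling by the other digestive genes. No member was higher in any alternative.

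Signs turned for Cela1 (0.008, outside genes), Ctrb1 (-0.043, other digestive genes), Ctrl (0.02, median centring; 0.066, outside genes; 0.026, without CKO3) and Cpb1 (0.102, median centring; 0.148, outside genes; 0.016, 0.015, 0.033 and 0.028 without CKO2, CKO3, CKO4 and WT2). Leaving out a library gave -0.162 to 0.026 for Ctrl and -0.072 to 0.033 for Cpb1. All of these missed the threshold. Spink1, Prss3, Amy2a5 and Amy2b stayed past it in all 19 alternatives, while it was missed in 15 by Pnliprp2, in 12 by Gcg, in 11 by Tyrobp, in 10 by Anxa1, in 6 by Kdr, in 5 by Try4 and Foxa2 and in 4 by Sox9. Over all genes, 121 higher became 63 with the 5 RPKM filter, 305 with median centring, 228 by outside genes, 75 by other digestive genes, and 47 to 242 when leaving out a library. The 489 lower became 297, 267 and 194 under the first 3 of these, 325 with limma-voom, and 130 to 600 when leaving out a library. Median centring moved the median of all genes by 0.10. The cause was not tested.

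The difference in the share of summed RPKM, 0.574 points, ran from 0.028 to 1.102 without each library. Replicate numbers gave no visible pairing: same-numbered libraries correlated at -0.315 to 0.142, and 1 of 8 correlated best with its own number. Such correlations cannot show whether samples were paired by design. With a replicate block 110 genes were higher and 438 lower, and Cela3a had an adjusted p of 0.0668. Among the members, only Cela3a had few reads, 202 to 413 per library.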
